A study of Mus musculus with 38 samples.

Results

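The RelA-TA-KI early LPS libraries were 3 of the 38 libraries of a study of mouse embryonic fibroblasts. Each was 1 library of primary fibroblasts from homozygous RelA-TA-KI embryos on the C57BL/6 background, at 0.5 h and at 1 h of lipopolysaccharide (LPS, 100 ng/ml) and without LPS (0 h). They were chosen as the 0.5 h and 1 h RelA-TA-KI LPS columns of the deposited count table, each set against the 0 h column. The matched wild-type libraries, also 1 at each of 0, 0.5 and 1 h of LPS, served for comparison. So did RelA-TA-KI cells given poly(I:C), a synthetic double-stranded RNA, at 20 ug/ml (1 library at each of 0.5 and 1 h) and RelA-TA-KI cells given tumour necrosis factor (TNF) at 10 ng/ml (2 libraries at each of 0, 0.5 and 1 h). Wild-type cells given TNF at 10 ng/ml, also 2 libraries at each of 0, 0.5 and 1 h, served to compare TNF responses between genotypes. All cells had been held overnight in 0.5% bovine calf serum. The poly(I:C) libraries had no untreated library of their own and share the LPS 0 h library, which is also common to the 0.5 h and 1 h comparisons.

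RelA is the NF-kB subunit that carries transactivation domains at its C-terminal end. RelA-TA-KI is known as a knock-in allele with mutations in those domains, while the labels give the name and the homozygous state alone. A change of that kind is not read from the level of the transcript, so the Rela level checks neither the mutation nor the label. Rela stood at 62.6, 67.1 and 80.5 CPM (counts scaled to library size) at 0, 0.5 and 1 h. As background, LPS is handed by the binding protein Lbp and by Cd14 to the receptor Tlr4 with its partner Ly96. Tlr4 signals through the adaptors Myd88 and Ticam1 (TRIF) to the IKK kinases, which release NF-kB from its inhibitors, and to the MAP kinases, which act on ternary complex factors with SRF, on CREB and on AP-1. Genes that need no newly made protein for their induction, such as Fos and Egr1, appear within minutes and are switched off again quickly. Type I interferon genes follow through TRIF, Tbk1 and Irf3.

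The promoters of 5 genes on which the comparison turns are shown, as the 250 bases before the RefSeq start site (GRCm38.p6), 5′ to 3′ on the gene's own strand. Cxcl2 and Dusp1 had the largest RelA-TA-KI ratios at 0.5 h among the 23 genes given throughout. Among the same 23 genes, Ccl20 and Cxcl1 had the lowest RelA-TA-KI response relative to wild-type at 1 h, and Nfkbia was added after its values were seen, as the standard NF-kB target. Capitals mark matches to the NF-kB (kB) consensus, known by its GGG start and CC end, or to the cyclic AMP response element (CRE, TGACGTCA) on either strand. The windows lie at chr5:90903649-90903898 on the plus strand (Cxcl2), chr17:26508473-26508722 on the minus strand (Dusp1), chr1:83116516-83116765 on the plus strand (Ccl20), chr5:90890995-90891244 on the plus strand (Cxcl1) and chr12:55492648-55492897 on the minus strand (Nfkbia).
Cxcl2: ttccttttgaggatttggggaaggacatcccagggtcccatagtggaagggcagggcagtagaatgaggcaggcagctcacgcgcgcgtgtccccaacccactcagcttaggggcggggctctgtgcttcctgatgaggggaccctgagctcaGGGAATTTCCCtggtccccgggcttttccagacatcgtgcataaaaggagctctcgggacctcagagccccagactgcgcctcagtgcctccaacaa
Dusp1: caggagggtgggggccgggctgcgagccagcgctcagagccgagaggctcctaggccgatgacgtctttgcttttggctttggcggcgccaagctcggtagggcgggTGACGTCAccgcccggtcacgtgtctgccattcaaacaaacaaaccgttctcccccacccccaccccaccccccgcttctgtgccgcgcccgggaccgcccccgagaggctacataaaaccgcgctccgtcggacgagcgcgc
Ccl20: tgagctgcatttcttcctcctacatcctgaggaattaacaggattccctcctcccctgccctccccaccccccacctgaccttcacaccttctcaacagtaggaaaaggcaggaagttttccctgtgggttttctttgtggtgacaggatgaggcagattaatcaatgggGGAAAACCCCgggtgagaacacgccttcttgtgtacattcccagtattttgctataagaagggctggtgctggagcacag
Cxcl1: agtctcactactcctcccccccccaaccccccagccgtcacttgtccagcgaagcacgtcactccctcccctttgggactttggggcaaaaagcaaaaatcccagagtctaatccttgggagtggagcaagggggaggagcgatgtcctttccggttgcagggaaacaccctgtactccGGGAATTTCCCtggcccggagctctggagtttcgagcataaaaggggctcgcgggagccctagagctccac
Nfkbia: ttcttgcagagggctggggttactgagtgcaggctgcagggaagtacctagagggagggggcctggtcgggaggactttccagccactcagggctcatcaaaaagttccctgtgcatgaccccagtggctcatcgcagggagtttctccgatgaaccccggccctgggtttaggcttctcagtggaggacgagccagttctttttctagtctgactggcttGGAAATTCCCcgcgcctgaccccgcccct
The Cxcl2 and Cxcl1 promoters hold the same kB letters, GGGAATTTCC, at -97 in Cxcl2 and -71 in Cxcl1, counted from the base before the start site as -1. A second match, on the other strand, overlaps it from the next base. The Ccl20 match begins at -80. The Nfkbia match begins at -29, and there the other strand also reads GGGAATTTCC. The Dusp1 window holds a CRE beginning at -143 and no kB match.

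Among all 19113 mouse promoter windows of this length, 7.63% held a kB match, 1.96% a CRE, 6.24% an AP-1 match (TGANTCA) and 1.35% a CArG box, the SRF motif. Of the 151 genes at least 2-fold higher in RelA-TA-KI cells at 0.5 or 1 h of LPS, 110 had a window: 25 (22.7%) held a kB match, 8 (7.27%) a CRE, 12 (10.9%) an AP-1 match and 2 (1.82%) a CArG box. Over the 8758 measured genes with a window these shares were 8.94%, 2.77%, 3.89% and 1.10%. All motifs were searched on both strands, matches of 1 motif on both strands were counted once per window, and the printed windows hold no AP-1 or CArG match. An absent match says only that these letters are not in these 250 bases.

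The 3 RelA-TA-KI LPS libraries held 8.77, 8.11 and 8.62 M counts at 0, 0.5 and 1 h. The 18 libraries of the table ranged from 7.02 to 9.43 M. All 10 fibroblast markers were above 5 CPM in each of the 3 libraries, with Col1a1 at 18805, 16411 and 18333 CPM at 0, 0.5 and 1 h. All 16 macrophage markers were above 5 CPM too, with summed levels of 3688 CPM at 0.5 h and 3735 CPM at 1 h, against 4086 CPM at 0 h, and Lyz2 alone at 1519, 1332 and 1323 CPM at 0, 0.5 and 1 h. No macrophage marker was 2-fold higher or lower at either time. Transcripts that mark macrophages were thus read in all 3 libraries, and their part in the levels of Tnf, the chemokines and Il1b was not tested. Fewer cells of a type and less RNA per cell cannot be told apart in such bulk samples. Summed markers of the other types came to 35.5, 36.7 and 37.9 CPM at 0, 0.5 and 1 h for skeletal muscle, 20.0, 20.5 and 23.9 CPM for endothelium, 4.67, 5.89 and 6.98 CPM for epithelium and 102.9, 105.6 and 103.2 CPM for neural cells. The muscle factors Myod1 and Myf5 and the epithelial keratin Krt5 had 0 counts in all 3 libraries.

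With 1 library per time there is no replicate check, and no p-value or standard error can be given for LPS. Ratios are given with exact 95% binomial intervals in parentheses, which cover counting error only. A gene was taken as higher or lower when the log2 ratio of CPM (TMM scaling, prior count of 2) was at least 1 in size, a 2-fold difference, with at least 5 CPM in 1 of the 2 libraries. At 0.5 h, 74 of 10988 genes were higher (0.673%) and 1 was lower (0.00910%). At 1 h, 141 of 10977 genes were higher (1.28%) and 23 were lower (0.210%). The same rule between the 2 replicate libraries of each RelA-TA-KI TNF group gave 70 genes at 0 h, 65 at 0.5 h and 48 at 1 h. The number of genes past 2-fold at 0.5 h was thus close to that between replicate libraries, and the 23 genes lower at 1 h lay within the 8 to 35 that were lower in replicate 2 than in replicate 1. Above a log2 ratio of 2, LPS gave 33 genes higher at 0.5 h and 49 at 1 h, against 1, 11 and 1 genes higher and 14, 0 and 3 lower in replicate 2 over replicate 1 of the TNF groups at 0, 0.5 and 1 h. The SD of all log2 ratios was 0.27 at 0.5 h and 0.35 at 1 h, against 0.25 to 0.26 between replicates. Just inside the rule lay Pde4b (1.04) at 0.5 h and Hk2 (1.01) at 1 h, and just outside it Klf2 (1.00) and Slc16a10 (1.00), as log2 ratios.

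Of 21 measured genes of the LPS receptor and signalling list, only Cd14, the LPS co-receptor, was 2-fold higher, at both times, and the list's median log2 ratio was 0.07 at 0.5 h and -0.03 at 1 h, against -0.01 over all genes at each time. Each count of list members higher or lower is to be read against the shares over all genes given above. Cd14 stood at 39.4, 112.9 and 193.8 CPM at 0, 0.5 and 1 h. Tlr4 stood at 55.3, 50.2 and 50.5 CPM and Myd88 at 33.8, 33.2 and 31.4 CPM. Of the 5 NF-kB subunits, Rel was 2-fold higher, at 1 h, with 23.5, 31.2 and 75.6 CPM, while Relb had 12.6, 12.6 and 14.9 CPM.

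Among 18 and 19 measured NF-kB inhibitors and feedback genes at 0.5 and 1 h, 6 were higher at each time and none was lower. The median log2 ratio of the list was 0.13 at 0.5 h and 0.46 at 1 h. Nfkbia, which encodes the inhibitor IkB-alpha, had 21.7, 56.6 and 125.3 CPM at 0, 0.5 and 1 h. Tnfaip3, the ubiquitin-editing brake A20, had 7.06, 29.0 and 93.5 CPM. Both were higher at each step of the time course, Nfkbia by 5.78-fold (5.00 to 6.71) and Tnfaip3 by 13.3-fold (10.4 to 17.1) at 1 h over 0 h. Nfkbiz, a nuclear IkB protein that works with NF-kB at secondary genes, had 12.6, 154.0 and 211.7 CPM, a ratio of 12.2-fold (10.2 to 14.7) already at 0.5 h. Nfkbid, another nuclear IkB gene, was scarce at 0 h with 0.497, 8.88 and 10.1 CPM at 0, 0.5 and 1 h, from 5, 83 and 97 counts, 17.9-fold (7.36 to 56.5) at 0.5 h. Nfkbie, the gene of IkB-epsilon, had 5.47, 4.92 and 8.96 CPM and Birc3 15.7, 16.9 and 17.7 CPM, both short of 2-fold. Ier3, an early stress gene, had 10.53, 29.2 and 39.9 CPM and was higher at both times, Map3k8, the kinase Tpl2, at 0.5 h, and Tnip3 at 1 h.

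The immediate early transcription factors, the longest list but for the zinc finger genes, were the one with most genes higher by count. Of 35 measured genes of the list, 19 were higher at 0.5 h and 23 at 1 h, and the list's median log2 ratio was 1.13 and 1.21. At 1 h 8 of 12 measured chemokines were higher, a like share. Fos, the AP-1 subunit, had 12.9, 208.6 and 60.3 CPM at 0, 0.5 and 1 h, and Egr1, a zinc finger factor controlled by SRF, had 130.6, 713.0 and 187.8 CPM. Both were at their highest at 0.5 h: Fos was 16.1-fold (13.5 to 19.4) over 0 h then and 4.67-fold (3.85 to 5.69) at 1 h, and Egr1 5.46-fold (5.15 to 5.80) and 1.44-fold (1.34 to 1.55). Fosb had 2.48, 58.2 and 40.1 CPM and Junb 27.5, 193.4 and 235.7 CPM at 0, 0.5 and 1 h. Atf3, a stress-induced repressor of the ATF family, had 23.3, 210.9 and 183.4 CPM. The orphan nuclear receptor genes Nr4a1 and Nr4a3 had 18.8, 225.8 and 143.8 CPM and 2.09, 24.1 and 26.4 CPM. At 1 h these 5 genes were still between 7.66-fold (Nr4a1) and 16.1-fold (Fosb) above 0 h. Csrnp1 was higher at 1 h than at 0.5 h, with 7.06, 35.9 and 105.3 CPM, and Myc passed 2-fold at 1 h, with 24.2, 47.9 and 62.6 CPM.

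Brakes on MAP kinases and on unstable mRNAs held some of the largest ratios, those of Dusp1 and Zfp36. Dusp1, the phosphatase that inactivates p38 and JNK, had 9.44, 238.1 and 268.7 CPM at 0, 0.5 and 1 h, from 95, 2225 and 2580 counts, a ratio of 25.2-fold (20.5 to 31.3) at 0.5 h and 28.5-fold (23.2 to 35.3) at 1 h. Dusp5, an ERK phosphatase, had 4.67, 19.6 and 64.7 CPM and Dusp4 10.8, 21.0 and 54.8 CPM. Dusp2 rested on 1, 14 and 55 counts, so its ratio of 57.6-fold (9.92 to 2318) at 1 h is known only within a wide interval. Of 15 and 16 measured MAP kinase brakes, 4 and 6 were higher, the others including the Sprouty and Spred genes, which stayed under 2-fold. Zfp36, which encodes the mRNA-destabilising protein tristetraprolin, had 21.7, 313.6 and 295.9 CPM, 14.5-fold (12.6 to 16.7) at 0.5 h. The RNase gene Zc3h12a had 5.37, 17.3 and 35.8 CPM. Of 7 mRNA decay genes, 2 were higher at 0.5 h and 3 at 1 h.

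**Figure D1:**
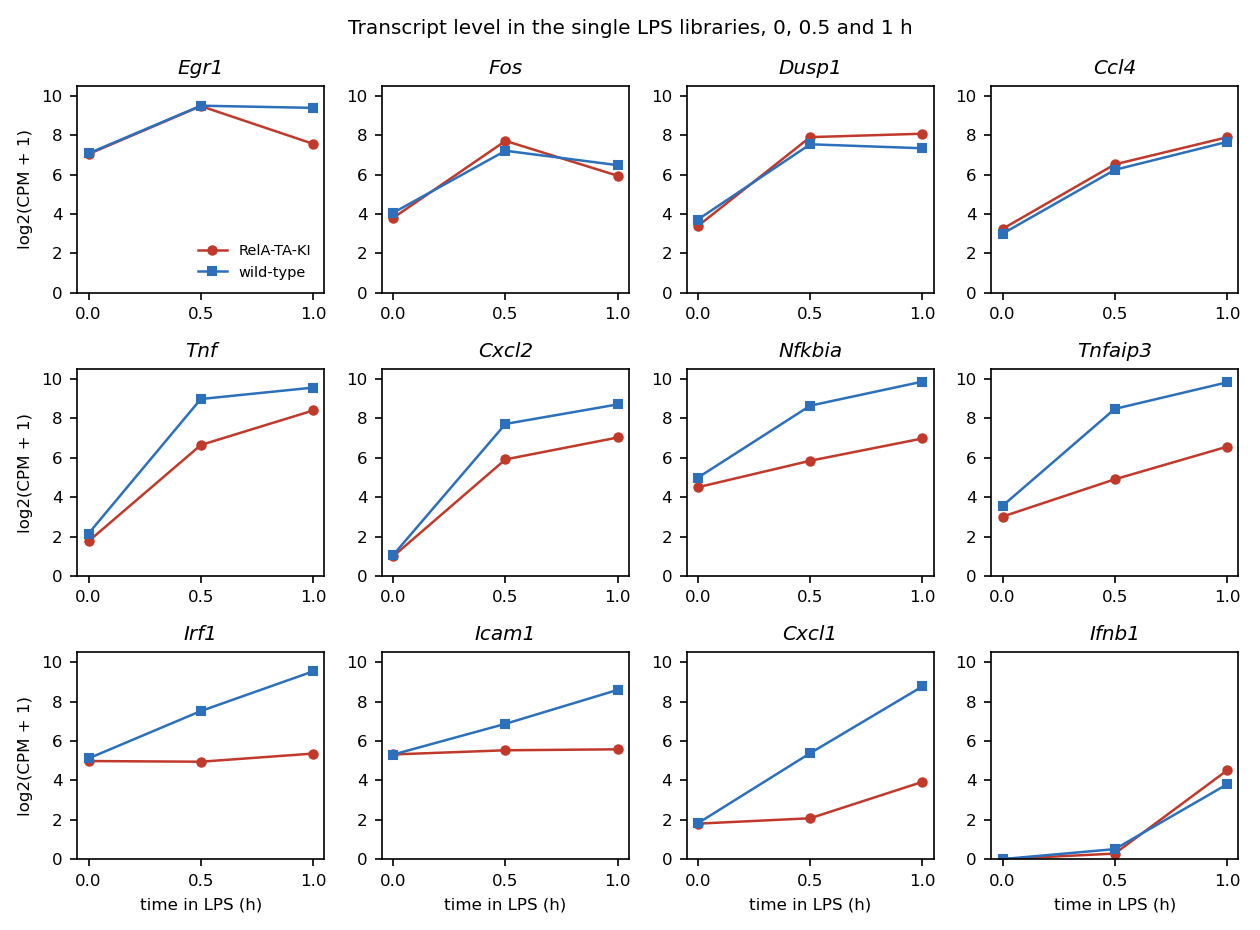
Transcript level of 12 genes as log2(CPM + 1) against time in LPS (h), 1 library per point, RelA-TA-KI as red circles and wild-type as blue squares. The lines of Egr1, Fos, Dusp1, Ccl4 and Ifnb1 lie close together at 0.5 h, when Ifnb1 had hardly any counts in RelA-TA-KI cells. At 1 h those of Egr1, Nfkbia, Tnfaip3, Irf1, Icam1 and Cxcl1 lie lower in RelA-TA-KI cells.

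The largest ratios were those of the secreted factors Cxcl2 and Tnf. Cxcl2, a neutrophil chemokine, had 0.994, 59.5 and 129.8 CPM at 0, 0.5 and 1 h, from 10, 556 and 1246 counts, and was 59.9-fold (32.3 to 125.6) over 0 h at 0.5 h and 130.6-fold (70.8 to 273.0) at 1 h. Tnf had 2.38, 99.3 and 337.6 CPM, from 24, 928 and 3241 counts, and was 41.6-fold (27.8 to 65.3) and 141.5-fold (94.96 to 221.2) over 0 h. Il1b, the gene of interleukin-1 beta, had 1.89, 6.21 and 23.5 CPM, and Nlrp3, which builds the inflammasome that processes it, 3.58, 24.2 and 91.5 CPM. The chemokines Ccl3 and Ccl4, which attract monocytes and T cells, had 13.2, 94.0 and 201.4 CPM and 8.45, 90.6 and 237.1 CPM, and Tnfsf9, the ligand 4-1BBL, 2.58, 21.3 and 43.3 CPM. The monocyte chemokine Ccl2 had 9.74, 47.5 and 126.1 CPM and Ccl7 6.46, 16.4 and 59.0 CPM. Cxcl1, a close relative of Cxcl2, had only 2.48, 3.21 and 14.2 CPM, and Ccl20 had 0.199, 0.856 and 0.417 CPM, at or near the 0.312 CPM that a count of 3 is worth at 1 h. Of 11 and 12 measured chemokines, 5 were higher at 0.5 h and 8 at 1 h, with median log2 ratios of 0.56 and 2.18. Of 7 measured cytokines, 3 were higher at 0.5 h (Il1b, Tnf and Tnfsf9) and 4 at 1 h, with Lif added. Il6 stood at 1.09, 1.82 and 1.35 CPM and never reached the 5 CPM minimum.

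Ifnb1, the interferon-beta gene, had 0, 2 and 209 counts at 0, 0.5 and 1 h. Against a floor of 3 counts in the 0 h library, it was at least 73.0-fold higher at 1 h. It was the only higher gene among 8 measured interferon regulatory factors and Ifnb1: Irf1 had 30.6, 29.9 and 40.1 CPM at 0, 0.5 and 1 h. Of 20 measured interferon-stimulated genes, none was higher at 0.5 h, and only Rsad2, the antiviral gene of viperin, at 1 h with 26.5, 35.1 and 63.1 CPM. The list's median log2 ratio was 0.29 at 0.5 h and 0.17 at 1 h. Isg15 and Ifit1 had 49.7, 75.9 and 76.5 CPM and 85.3, 107.2 and 129.9 CPM.

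Adhesion, matrix and inflammatory effectors passed the rule mainly at 1 h, with 3 of 14 measured genes higher at 0.5 h and 7 at 1 h. Ptgs2, the inducible cyclooxygenase, had 19.5, 65.4 and 74.5 CPM and Plau, urokinase, 43.1, 104.0 and 213.2 CPM. The adhesion genes Icam1 and Vcam1 had 38.9, 45.2 and 46.8 CPM and 117.1, 123.0 and 144.1 CPM, and Sod2 had 37.1, 39.6 and 33.2 CPM, all short of 2-fold. Among growth factors and serum response targets, 4 of 11 were higher at 0.5 h and 3 at 1 h: Ccn1, the matrix protein CYR61, had 196.5, 573.9 and 282.6 CPM and Hbegf, an EGF receptor ligand, 14.7, 33.0 and 56.1 CPM. Ereg, another EGF receptor ligand, had 4.77, 15.0 and 19.4 CPM, and Ccn2 141.0, 326.7 and 352.6 CPM. Of 16 survival and stress genes 3 and 4 were higher, among them the kinase gene Pim1 with 11.0, 47.5 and 104.3 CPM. Of 6 and 7 measured SOCS genes and Stat3, only Socs3 was higher, with 15.6, 36.7 and 119.3 CPM.

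**Figure D2:**
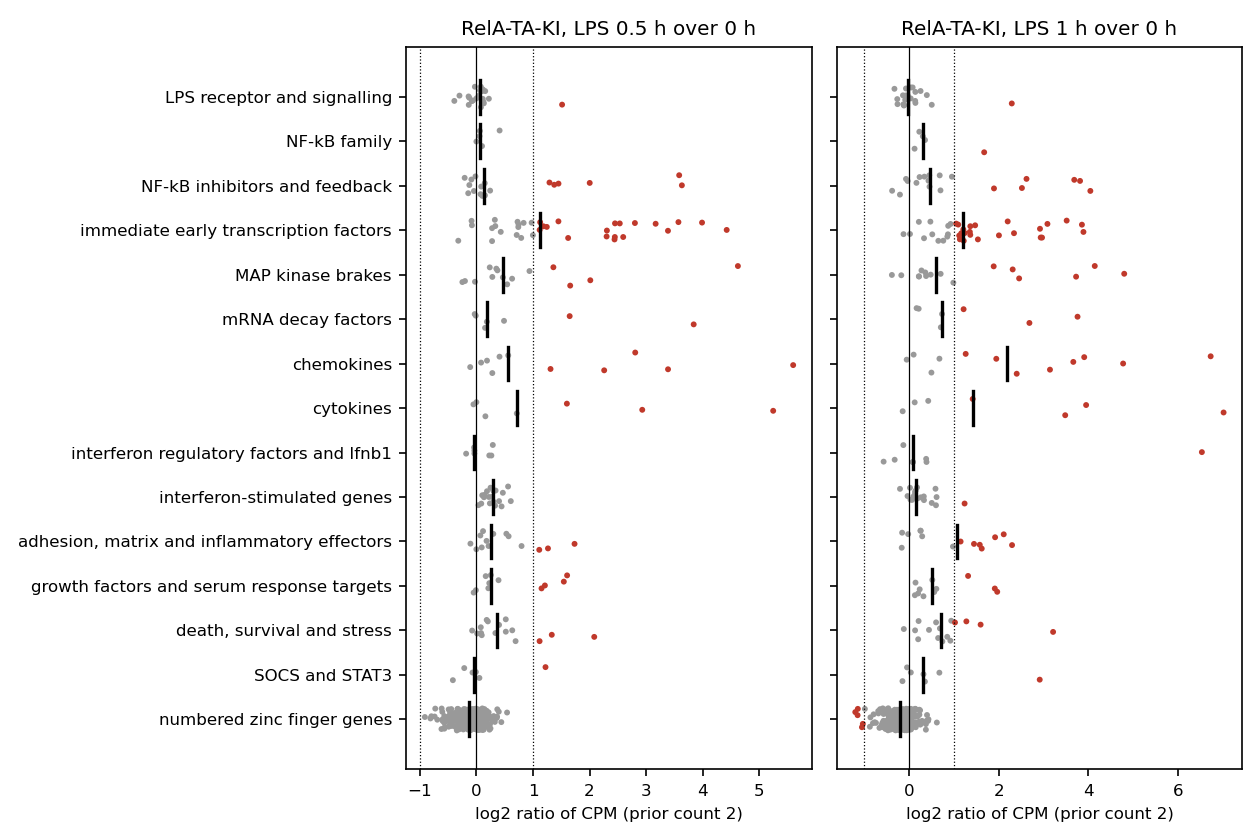
Log2 ratio of CPM in RelA-TA-KI cells at 0.5 h (left) and 1 h (right) of LPS over 0 h, 1 point per measured gene of 15 lists, with the list's median as a black bar and the 2-fold rule as dotted lines; red points are past it. The immediate early transcription factors have the highest median at 0.5 h (1.13) and the chemokines at 1 h (2.18).

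The time course was described by the ratio of 1 h over 0.5 h, for the 151 genes higher at either time, 2-fold again being the limit. Only 5 genes were at least 2-fold higher at 0.5 h than at 1 h: Egr1, Egr2, Fos, Ier2 and Ccn1, all known as targets of SRF. For 44 genes the level was at least 2-fold higher at 1 h, among them Tnf, Cxcl2, Ccl2, Ccl3, Ccl4, Nfkbia, Tnfaip3, Ifnb1, Dusp2, Dusp4, Dusp5 and Socs3. The other 102 differed by less than 2-fold between the times. Median log2 ratios over 0 h were 2.45 at 0.5 h and 0.52 at 1 h in the first set, 1.01 and 1.31 in the level set and 0.91 and 2.36 in the later set, which follows in part from how the sets were made. The median span from the start to the end of the gene model was 3.38 kb in the first set, 10.4 kb in the level set and 9.51 kb in the later set, against 25.7 kb over the 11061 measured genes. Of the later genes with a promoter window, 12 of 35 (34.3%) held a kB match and none a CRE, against 11 of 72 (15.3%) and 8 (11.1%) in the level set. In the first set 3 genes had a window, of which 2 held a kB match and none a CArG box. These shares are descriptions, and no test of them was made.

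Genes lower in LPS were few, and most were of low level. At 0.5 h only B630019K06Rik passed the rule, with 6.36, 2.78 and 4.37 CPM at 0, 0.5 and 1 h. At 1 h the lowest ratios were those of Cnr2, the cannabinoid receptor of immune cells, with 7.15, 4.60 and 1.77 CPM, of Lyl1 with 13.2, 8.13 and 3.96 CPM and of Hhex with 9.74, 8.13 and 3.12 CPM. Lyl1 and Hhex encode transcription factors known from blood cell development. Next came 9930111J21Rik2, Creg2, Gpr146, Traf3ip3 and Kif26a, with log2 ratios of -1.43, -1.40, -1.30, -1.29 and -1.28. Il16, March1, Tnfaip8l2 and Tifab, also lower at 1 h, are known mainly from immune cells, as is Traf3ip3. Il16, March1, Tnfaip8l2 and Tifab, and Txnip below, were picked from the 24 lower genes after their values were seen. The 24 also include Engase, Rhbdl3 and Dcp1b, so the picked genes do not stand for the whole set. Txnip, which binds thioredoxin and limits glucose uptake, was the most abundant of the lower genes, with 305.6, 178.7 and 148.7 CPM. Of 239 measured numbered zinc finger genes (Zfp genes) at 1 h, 5 were lower and none higher: Zfp128, Zfp467, Zfp558, Zfp61 and Zfp961. The median log2 ratio of the list was -0.12 at 0.5 h and -0.19 at 1 h. At 1 h the first gene outside the rule was Zfp759, at -0.98.

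Side by side with wild-type cells, RelA-TA-KI cells had like numbers of immediate early genes past the rule and fewer NF-kB feedback genes. In wild-type cells 91 of 11018 genes were higher at 0.5 h (0.826%) and 2 lower (0.0182%), and at 1 h 229 of 11028 were higher (2.08%) and 29 lower (0.263%). At 0.5 h, 57 genes were higher in both genotypes, 77.0% of the RelA-TA-KI genes and 62.6% of the wild-type genes. At 1 h, 112 were, 79.4% of the RelA-TA-KI genes and 48.9% of the wild-type genes. No gene was higher in RelA-TA-KI cells and lower in wild-type cells. Among the 108 genes higher in either genotype at 0.5 h, the RelA-TA-KI ratio was at least 2-fold below the wild-type ratio in 34 and 2-fold above it in 3; among the 258 at 1 h these were 103 and 6. The median difference of the log2 ratios, RelA-TA-KI minus wild-type, was -0.31 and -0.67 over these genes, against -0.02 and 0.01 over all measured genes. These are differences between single libraries of each genotype, and the 2 series of cells differed in more than genotype: Xist stood at 0.696, 1.498 and 0.833 CPM in RelA-TA-KI and at 347.5, 431.6 and 366.4 CPM in wild-type libraries at 0, 0.5 and 1 h, with the Y-linked Ddx3y at 132.8, 132.6 and 153.1 CPM in RelA-TA-KI and 57.0, 59.9 and 66.8 CPM in wild-type libraries, so that the wild-type libraries held both transcripts and the RelA-TA-KI libraries mainly the Y-linked one. The summed macrophage markers were 4086, 3688 and 3735 CPM in RelA-TA-KI and 4612, 4844 and 4611 CPM in wild-type libraries at those times. The part of either in the difference was not tested.

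The immediate early list had 19 of 35 genes higher at 0.5 h and 23 of 35 at 1 h in RelA-TA-KI cells, and 17 of 34 and 26 of 35 in wild-type cells. The median log2 ratio of the list was 1.13 and 1.21 in RelA-TA-KI and 0.99 and 1.73 in wild-type cells at these times. With 1 library each, at 0.5 h Egr1 had 713.0 CPM in RelA-TA-KI and 722.7 CPM in wild-type cells, and Fos 208.6 CPM in RelA-TA-KI and 147.1 CPM in wild-type cells. At 1 h the levels of Egr1 lay apart, with 187.8 CPM in RelA-TA-KI and 669.0 CPM in wild-type cells, and Ier2 likewise had 18.3, 100.4 and 25.6 CPM in RelA-TA-KI and 19.7, 114.3 and 127.8 CPM in wild-type cells at 0, 0.5 and 1 h. Ccl3 and Ccl4 were alike in both: Ccl4 had 8.45, 90.6 and 237.1 CPM in RelA-TA-KI and 6.97, 74.6 and 201.4 CPM in wild-type cells. Dusp1 had the higher ratio in RelA-TA-KI cells, at log2 4.62 and 4.80 against 3.90 and 3.70 in wild-type cells, and Ifnb1 had 21.8 CPM in RelA-TA-KI and 12.9 CPM in wild-type cells at 1 h.

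The NF-kB inhibitors and feedback list had 6 of 18 and 6 of 19 genes higher in RelA-TA-KI cells, against 9 of 20 and 13 of 20 in wild-type cells, with median log2 ratios of 0.13 and 0.46 in RelA-TA-KI cells, against 0.69 and 2.44 in wild-type cells. Nfkbia had 21.7, 56.6 and 125.3 CPM in RelA-TA-KI cells and 30.8, 400.0 and 935.1 CPM in wild-type cells at 0, 0.5 and 1 h. Tnfaip3 had 7.06, 29.0 and 93.5 CPM in RelA-TA-KI and 10.8, 357.2 and 911.8 CPM in wild-type cells. Both were higher in LPS in both genotypes, but several-fold lower in RelA-TA-KI cells at 0.5 and 1 h. Irf1, an interferon regulatory factor, had 30.6, 29.9 and 40.1 CPM in RelA-TA-KI and 33.7, 182.8 and 743.0 CPM in wild-type cells. Icam1 had 38.9, 45.2 and 46.8 CPM in RelA-TA-KI and 38.7, 116.3 and 386.4 CPM in wild-type cells. Both stayed near their 0 h level in RelA-TA-KI cells. Cxcl1 had 2.48, 3.21 and 14.2 CPM in RelA-TA-KI and 2.53, 40.7 and 437.1 CPM in wild-type cells. Ccl20 had 0.199, 0.856 and 0.417 CPM in RelA-TA-KI and 0.362, 0.525 and 42.2 CPM in wild-type cells. The difference of log2 ratios at 1 h was -5.56 for Ccl20, -4.90 for Cxcl1, -4.07 for Irf1 and -3.04 for Icam1, of which that of Ccl20 depends on the prior count, since few counts lie behind its 0 h levels. The promoters of Cxcl2 and Cxcl1 hold the same kB letters, which that of Nfkbia holds on the other strand. Cxcl2 had 0.994, 59.5 and 129.8 CPM in RelA-TA-KI and 1.09, 209.9 and 418.6 CPM in wild-type cells, a difference of -1.58 at 1 h. Of the 103 genes with an at least 2-fold smaller ratio in RelA-TA-KI cells at 1 h, 72 had a promoter window and 25 of these (34.7%) held a kB match. The share was 8.94% over all measured genes and 22.7% over the genes higher in RelA-TA-KI cells at 0.5 or 1 h. The 103 genes were themselves drawn from genes higher in LPS, and these shares were not tested. Il1b, Nlrp3 and Acod1 also had smaller ratios: Il1b had 1.89, 6.21 and 23.5 CPM in RelA-TA-KI and 1.99, 67.6 and 262.2 CPM in wild-type cells, and Acod1, which makes itaconate and was chosen after its values were seen, 2.38, 1.82 and 8.44 CPM in RelA-TA-KI and 2.99, 8.19 and 137.1 CPM in wild-type cells. The genes with at least 2-fold larger ratios in RelA-TA-KI cells, likewise named after their values were seen, were Nr4a3, Amigo3 and Pidd1 at 0.5 h and Dusp1, Mmp12, Rgs4, Ccr1, Dach2 and 4930430E12Rik at 1 h. Apart from Nr4a3 and Dusp1 these genes reached at most 14.2 CPM in RelA-TA-KI cells (Mmp12). Sele, an endothelial adhesion gene, lay lowest of all at 1 h, with 0.497, 0.107 and 0.625 CPM in RelA-TA-KI and 0, 0.315 and 22.0 CPM in wild-type cells.

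**Figure D3:**
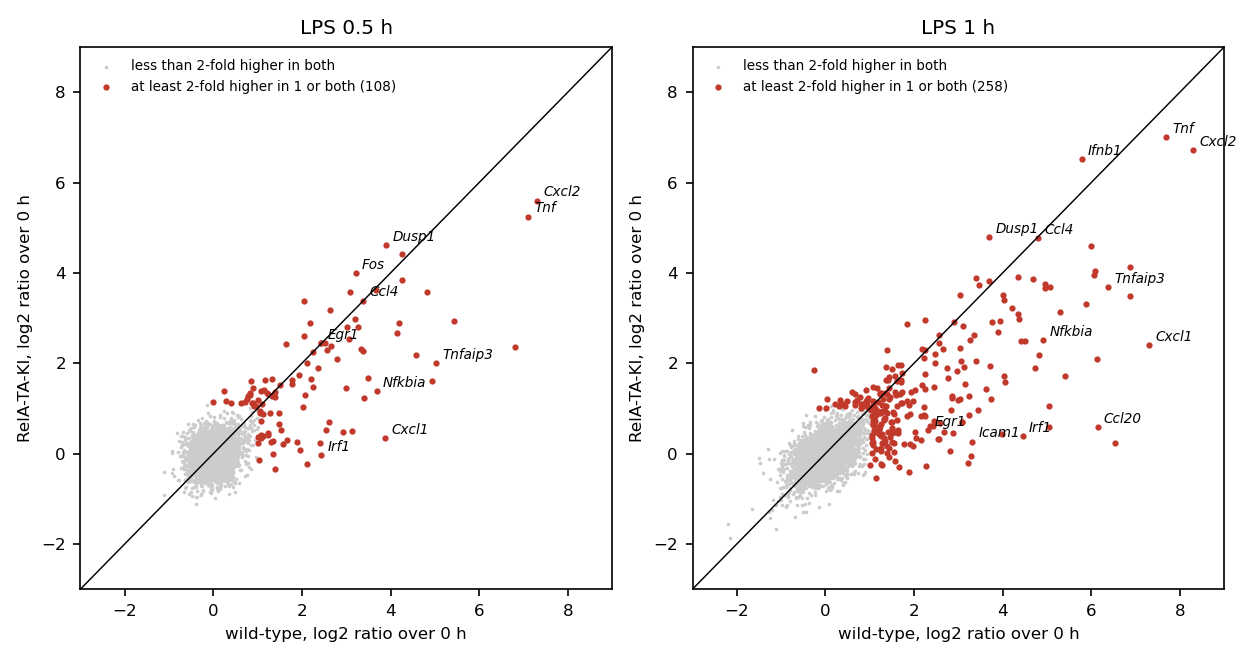
Log2 ratio of LPS over 0 h in RelA-TA-KI cells (vertical) against wild-type cells (horizontal) at 0.5 h and 1 h, 1 point per gene with at least 5 CPM in 1 of the libraries, genes at least 2-fold higher in 1 or both genotypes in red and the line of equal ratios in black. At 1 h 198 of the 258 red genes lie below the line, with Ccl20, Irf1, Icam1 and Cxcl1 far below it and Dusp1 and Ifnb1 above.

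The TNF libraries gave a replicated test of the same genes in the same genotype, with their own untreated libraries. In edgeR's quasi-likelihood fit of all 20 TNF libraries, 115 of 13843 genes (0.831%) rose and 33 (0.238%) fell in RelA-TA-KI cells at 0.5 h, and 277 (2.00%) rose and 177 (1.28%) fell at 1 h, at an adjusted p below 0.05. With the replicate number as a block these counts were 959 (6.93%) and 757 (5.47%) at 0.5 h and 1050 (7.59%) and 823 (5.95%) at 1 h. Of the 74 genes higher at 0.5 h of LPS, 43 rose with TNF at 0.5 h, which is 58.1% of the LPS genes and 37.4% of the TNF genes. Of the 141 at 1 h, 140 were tested and 70 rose with TNF, which is 49.6% of the LPS genes and 25.3% of the TNF genes. None fell with TNF at the same time. With the block, 59 of 74 and 102 of 141 rose, where 6.93% and 7.59% of all tested genes rose at 0.5 h and 1 h. The median TNF log2 fold change was 1.45 and 1.00 over the LPS genes, against -0.01 and 0.00 over all genes. Of the 23 genes lower at 1 h of LPS, 4 fell with TNF, and 8 with the block: without it these were Txnip, Zfp128, Zfp467 and Zfp61.

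Fos rose with TNF at 0.5 h and not at 1 h. The 2 TNF libraries per time had 13.2 and 11.2 CPM untreated, 239.4 and 265.4 CPM at 0.5 h and 15.6 and 12.9 CPM at 1 h. The log2 fold change of edgeR was 4.35 ± 0.28 (SE, adjusted p = 2.84e-07) and, at 1 h, 0.22 ± 0.32 (SE, adjusted p = 0.756). In LPS, Fos was likewise higher at 0.5 h, but still 4.67-fold above 0 h at 1 h. Dusp1 rose at both times, with 12.3 and 10.2 CPM untreated, 159.2 and 157.7 CPM at 0.5 h and 41.2 and 31.6 CPM at 1 h. Its edgeR log2 fold change with TNF was 3.80 ± 0.22 (SE, adjusted p = 8.83e-08) and, at 1 h, 1.69 ± 0.23 (SE, adjusted p = 7.14e-04). The level of Dusp1 was lower at 1 h than at 0.5 h of TNF, whereas in LPS it was 238.1 CPM at 0.5 h and 268.7 CPM at 1 h. Zfp36 followed the TNF course of Dusp1, at log2 3.31 ± 0.15 (SE, adjusted p = 6.49e-09) and, at 1 h, 0.86 ± 0.16 (SE, adjusted p = 0.00825) by edgeR. Its call at 1 h was lost without untreated replicate 1 (0.88), untreated replicate 2 (0.84) or 1 h replicate 1 (0.77). Nr4a1 stayed high, at log2 4.02 ± 0.12 (SE, adjusted p = 5.62e-11) and, at 1 h, 3.999 ± 0.12 (SE, adjusted p = 1.20e-10) by edgeR.

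Nfkbia and Tnfaip3 rose with TNF in RelA-TA-KI cells as well. Nfkbia had 19.0 and 21.1 CPM untreated, 28.3 and 33.8 CPM at 0.5 h and 61.3 and 66.2 CPM at 1 h, with an edgeR log2 fold change of 1.66 ± 0.12 (SE, adjusted p = 1.18e-06) at 1 h. Tnfaip3 had 8.21 and 8.03 CPM untreated, 20.4 and 17.5 CPM at 0.5 h and 27.1 and 26.7 CPM at 1 h, with 1.73 ± 0.18 (SE, adjusted p = 5.24e-05) at 1 h by edgeR. Their log2 ratios in LPS at 1 h were 2.52 and 3.68. Cxcl1 rose with TNF at 0.5 h, where LPS left it short of 2-fold: it had 1.96 and 2.87 CPM untreated, 21.9 and 24.6 CPM at 0.5 h and 7.93 and 8.83 CPM at 1 h. The edgeR log2 fold change of Cxcl1 was 3.24 ± 0.43 (SE, adjusted p = 7.90e-04) and, at 1 h, 1.78 ± 0.49 (SE, adjusted p = 0.0688), against LPS log2 ratios of 0.34 and 2.40. With the replicate block Cxcl1 passed at 1 h as well (1.78, adjusted p = 0.0147 by edgeR). Il6 rose with TNF at both times, without the block and with it. It had 0.980 and 0.574 CPM untreated and 7.02 and 7.64 CPM at 0.5 h of TNF, while it had 1.82 CPM at 0.5 h of LPS. The edgeR log2 fold change of Il6 was 3.21 ± 0.40 (SE, adjusted p = 5.91e-04) at 0.5 h and 2.60 (adjusted p = 0.00305) at 1 h.

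Several of the largest LPS genes did not pass the test with TNF in the fit without the replicate block. Nfkbid passed in neither fit, with an edgeR log2 fold change of 0.04 ± 0.50 (SE, adjusted p = 0.984) at 0.5 h. Nlrp3 had 1.53 ± 0.54 (SE, adjusted p = 0.153) at 1 h by edgeR, and with the block 1.53 (adjusted p = 6.52e-05). Ccl4 had 3.68 and 4.36 CPM untreated, 10.8 and 20.5 CPM at 0.5 h and 8.05 and 14.4 CPM at 1 h. Its edgeR log2 fold change was 1.94 ± 0.55 (SE, adjusted p = 0.121) and, at 1 h, 1.47 ± 0.56 (SE, adjusted p = 0.185). With the block Ccl4 passed at both times, at 1.93 (adjusted p = 5.35e-06) and, at 1 h, 1.47 (adjusted p = 0.000136) by edgeR. Il1b was at 0 and 0.115 CPM untreated and 0.120 and 0.242 CPM at 1 h of TNF, at or under the level of 3 counts. Tnf passed at 1 h, with 2.08 and 1.49 CPM untreated and 9.61 and 12.6 CPM, at log2 2.63 ± 0.48 (SE, adjusted p = 0.00725) by edgeR, and missed the threshold at 0.5 h, at 2.09 ± 0.50 (SE, adjusted p = 0.0664). With the block Tnf passed at 0.5 h too (2.08, adjusted p = 6.01e-05 by edgeR). Whether LPS and TNF differ in these genes was not tested, since LPS has single libraries and the tables were scaled separately. The summed macrophage markers of the 6 TNF libraries ranged from 1237 to 2714 CPM, against 3688 to 4086 CPM in the 3 LPS libraries, and their part was not tested.

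**Figure D4:**
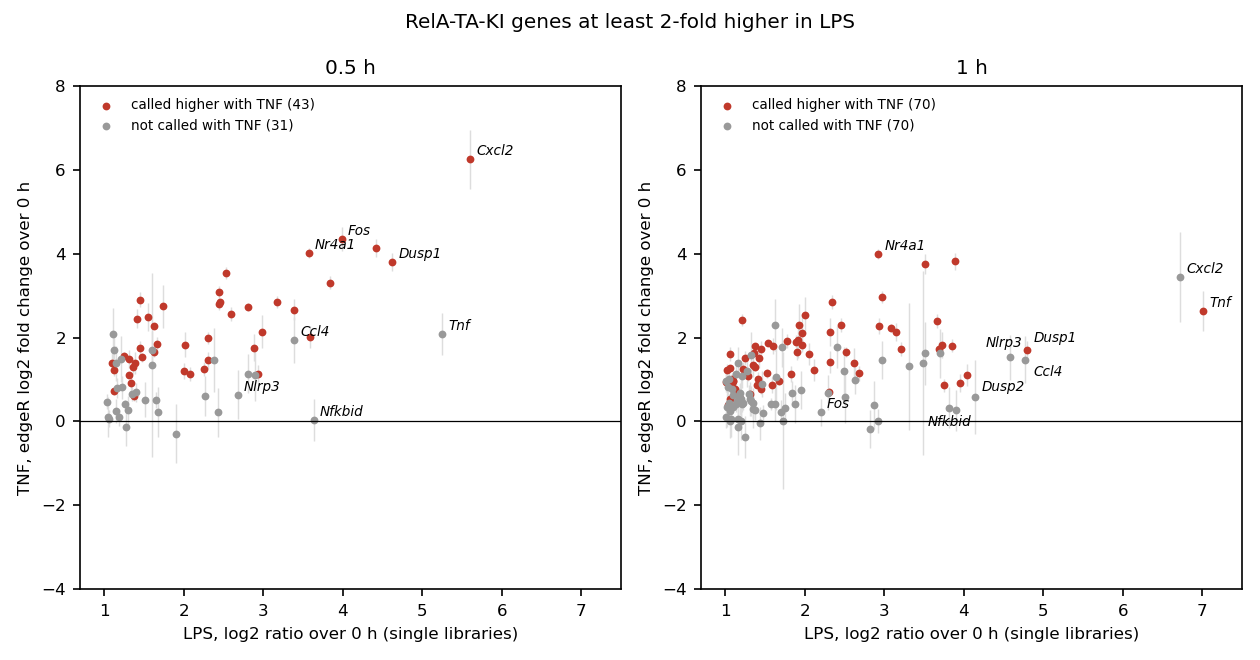
EdgeR log2 fold change with TNF (vertical, with SE, 2 libraries per time) against the log2 ratio in LPS (horizontal, single libraries) for the RelA-TA-KI genes at least 2-fold higher in LPS, at 0.5 h and 1 h. Red genes passed the TNF test without the replicate block (43 at 0.5 h, 70 at 1 h). Fos, Nr4a1, Dusp1 and Cxcl2 are high in both at 0.5 h, and Nfkbid lies at about 0 with TNF.

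With TNF the immediate early list, the longest but for the zinc finger genes, was again the one with most genes that rose by count. Over all tested genes 0.831% rose at 0.5 h and 2.00% at 1 h, and 6.93% and 7.59% with the block. Of 36 immediate early transcription factors 25 rose at 0.5 h and 27 at 1 h, where 2 fell. Of 16 MAP kinase brakes 7 and 8 rose, while 1 fell at 1 h. Of 20 NF-kB inhibitors and feedback genes 4 and 5 rose, of 18 chemokines 4 and 3 and of 14 tested cytokines 3 and 4. Of 14 growth factors and serum response targets 1 and 4 rose, and 11 and 12 with the block. With the block, 8 NF-kB inhibitors and feedback genes and 7 chemokines rose at 1 h, and 6 chemokines and 5 cytokines at 0.5 h. Also with it, 30 immediate early transcription factors and 9 MAP kinase brakes rose at each time, while 1 brake and 1 chemokine fell at each. None of 7 interferon regulatory factors and none of 22 interferon-stimulated genes rose by edgeR, and 1 of the 22 fell at 1 h. The median log2 fold change of the interferon-stimulated genes was -1.04 at 0.5 h and -0.87 at 1 h, against -0.01 and 0.00 over all genes. With the block 14 of them fell at 0.5 h and 10 at 1 h, and of the 7 interferon regulatory factors 3 fell at each time and Irf1 rose at 1 h (0.59, adjusted p = 0.000239 by edgeR). Of 16 macrophage markers none passed without the block, and 14 fell at 0.5 h and 10 at 1 h with it, with medians of -0.50 and -0.36 in the fit without it. Their part in the interferon-stimulated genes was not tested. Of 322 tested numbered zinc finger genes 8 fell at 0.5 h and 57 at 1 h, where 2 rose. With the block 35 and 99 of them fell. Over all tested genes 0.238% and 1.28% fell, and 5.47% and 5.95% with the block. The difference of the TNF responses between genotypes, tested as an interaction in the same fit, was called for 7 genes at 0.5 h (0.0506%) and 43 at 1 h (0.311%). All 7, and 42 of the 43, had the smaller response in RelA-TA-KI cells. At 1 h these included 7 of 20 NF-kB inhibitors and feedback genes, 4 of 5 NF-kB subunits and 4 of 18 chemokines. Of the 36 immediate early genes 1 had the smaller and 1 the larger response, and of 16 MAP kinase brakes none differed by edgeR.

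Poly(I:C), which Tlr3 and the cytosolic helicases detect, was given to RelA-TA-KI cells for the same times. This comparison was added after its values were seen. In LPS over poly(I:C) libraries of the same time, 37 of 10979 genes were at least 2-fold higher at 0.5 h (0.337%) and 4 lower (0.0364%), and at 1 h 85 of 10944 were higher (0.777%) and 16 lower (0.146%). Tnf had 99.3 CPM at 0.5 h and 337.6 CPM at 1 h in LPS, against 2.89 and 37.8 CPM in poly(I:C). Dusp1 had 238.1 and 268.7 CPM in LPS, against 19.0 and 59.7 CPM in poly(I:C). Cxcl2 had 59.5 and 129.8 CPM in LPS, against 1.197 and 11.7 CPM in poly(I:C). Ccl4 had 90.6 and 237.1 CPM in LPS, against 7.48 and 68.1 CPM in poly(I:C). Egr1 and Nr4a1 differed less at 0.5 h. Egr1 had 713.0 and 187.8 CPM in LPS, against 411.5 and 101.4 CPM in poly(I:C). Nr4a1 had 225.8 and 143.8 CPM in LPS, against 184.9 and 74.2 CPM in poly(I:C). The poly(I:C) levels of Tnf, Cxcl2, Dusp1 and Ccl4 were thus the lower ones at both times. Ccn1 had 573.9 and 282.6 CPM in LPS, against 576.3 and 153.2 CPM in poly(I:C). Ifnb1 had 0.214 and 21.8 CPM in LPS, against 0.0998 and 6.93 CPM in poly(I:C).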

How the data were processed

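Polyadenylated RNA was sequenced as single-end reads of 50 bp from stranded libraries, per the labels' protocols. The authors deposited raw counts per gene. The submitters' processing notes name cutadapt 1.9.1, STAR, featureCounts 1.4.6, DESeq2 and mm10, and the strand setting of the counting is not given in the sources used here. Of 45706 gene identifiers 45143 were given a symbol. From these counts, TMM factors, CPM and log2 ratios (prior count of 2) were computed with edgeR 4.0.16 in R 4.3.3. The LPS and poly(I:C) table has 1 library per condition and no test. The TNF table was tested with edgeR's quasi-likelihood F test over its 20 libraries in 10 groups, on 13843 genes past its expression filter, with Benjamini-Hochberg adjustment. The labels do not say that the 2 TNF libraries per group came from separate cultures, so p-values measure the spread between these libraries, which may be technical.

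Members, lists and tests were chosen with earlier results of these data known. Named genes are the 12 largest and 8 smallest ratios past the size rule with at least 20 counts, list members and 23 genes given throughout. Genes named beyond these were chosen after their values were seen. They are edges of the size rule, sex-linked transcripts, and genes such as Acod1, Txnip, C5ar1 and Rhob that were picked for their values or known roles. Same-numbered RelA-TA-KI TNF libraries deviated together (correlation 0.16 to 0.37 over 10 pairs of groups). The counts of genes called, and many list counts and calls, are therefore also given with the replicate number as a block. Alternatives were the scaling, the prior count, the CPM minimum, the fold limit, DESeq2 1.42.0, no filter, the block, the RelA-TA-KI libraries alone and left-out libraries.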

Additional observations from a re-analysis of the deposited data

Results flagged for a closer look

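Among the genes given throughout, the TNF response differed between genotypes by the interaction test in edgeR's fit, RelA-TA-KI minus wild-type. At 0.5 h the log2 difference was -3.64 ± 0.17 (SE, adjusted p = 6.17e-08) for Nfkbia, -3.65 ± 0.25 (SE, adjusted p = 5.46e-06) for Tnfaip3, -3.06 ± 0.25 (SE, adjusted p = 2.75e-05) for Irf1 and -1.87 ± 0.22 (SE, adjusted p = 0.0016) for Ccl2. At 1 h it was -3.22 ± 0.17 (SE, adjusted p = 2.44e-07) for Nfkbia, -4.06 ± 0.25 (SE, adjusted p = 1.18e-06) for Tnfaip3, -3.51 ± 0.33 (SE, adjusted p = 9.78e-05) for Nfkbie and -3.86 ± 0.25 (SE, adjusted p = 1.18e-06) for Irf1. For the chemokines at 1 h it was -2.17 ± 0.22 (SE, adjusted p = 1.83e-04) for Ccl2, -4.40 ± 0.69 (SE, adjusted p = 0.00765) for Ccl20 and -3.75 ± 0.62 (SE, adjusted p = 0.0132) for Cxcl10. For Icam1 it was -2.31 ± 0.30 (SE, adjusted p = 0.00219), for Zfp36 -1.46 ± 0.22 (SE, adjusted p = 0.00612) and for Rela itself -0.49 ± 0.09 (SE, adjusted p = 0.0337) at 1 h. In the single LPS libraries the differences at 1 h were -2.40 for Nfkbia, -2.69 for Tnfaip3, -4.07 for Irf1, -5.56 for Ccl20 and -0.20 for Rela, with no test.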

How the results depend on the processing

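The LPS counts depend on the CPM minimum and the fold limit, which by construction change how many genes can pass. Genes higher at 0.5 h numbered 134 at a minimum of 1 CPM, 387 with none, 44 at a log2 limit of 1.5 and 33 at 2, a limit chosen after seeing the data. At 1 h they numbered 221, 471, 73 and 49 under the same settings. Genes lower at 0.5 h numbered 5 with total counts in place of TMM, 3 with a prior count of 0.5, 54 at 1 CPM, 0 at 10 CPM, 307 with no minimum and 0 at either higher limit. Genes lower at 1 h numbered 37 with total counts, 99 at 1 CPM, 9 at 10 CPM, 355 with no minimum, 3 at a limit of 1.5 and 0 at 2. In wild-type cells 4 genes were lower at 0.5 h and 57 at 1 h with total counts, and 19 at 1 h with a prior count of 5. Of 344 alternatives for the LPS ratios of named genes 342 stayed within the counting interval, and none reversed.

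With TNF and no filter, RelA-TA-KI genes called numbered 685 higher and 499 lower at 0.5 h, and 755 and 492 at 1 h. The replicate block gave 959 and 757 at 0.5 h and 1050 and 823 at 1 h. The RelA-TA-KI libraries alone gave 60 lower at 0.5 h, and DESeq2 94 lower at 1 h. Leaving out 1 library gave 60 to 110 higher and 5 to 25 lower at 0.5 h. The counts were lowest without 0.5 h replicate 2 (60 higher) and 0.5 h replicate 1 (5 lower), and moved by over 1.5 times without any untreated or 0.5 h library (71, 62, 68 and 60 higher). At 1 h the range was 107 to 252 higher and 27 to 156 lower. There the higher count moved most without untreated replicate 2 (107), 1 h replicate 1 (120) and untreated replicate 1 (168), and the lower count also without 1 h replicate 2 (70). For the difference of TNF responses between genotypes, no filter gave 31 higher and 77 lower at 0.5 h, and 45 and 102 at 1 h. With the replicate block these were 2 and 15 at 0.5 h, and 8 and 71 at 1 h, and the shared numbers were not taken as pairs across genotypes, since correlations over all 45 pairs of groups ran from 0.01 to 0.53. DESeq2 gave 13 lower at 0.5 h. Without 1 library the 1 gene higher at 1 h became 0 to 1, and the 0 genes higher at 0.5 h by edgeR compare with 132 at an unadjusted p below 0.05 and 0 by DESeq2. The cause of these shifts was not tested. At 8.11 to 8.77 M counts per LPS library, the 5 CPM minimum leaves genes such as Ccl20 and Il6 out of the RelA-TA-KI counts of genes higher or lower.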

Other observations

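Of the 151 genes higher in RelA-TA-KI cells at 0.5 or 1 h of LPS, 76 stood in no list, and those named here were chosen after their values were seen. Several encode receptors and surface proteins of myeloid cells. C5ar1, the receptor of complement C5a, had 79.4, 133.1 and 202.9 CPM at 0, 0.5 and 1 h, and Cd83, a surface marker of activated dendritic cells, 19.4, 62.2 and 109.8 CPM. Clec4e, the lectin Mincle, had 0.596, 3.53 and 8.02 CPM in RelA-TA-KI and 1.45, 39.9 and 98.9 CPM in wild-type cells, while its neighbour in function Clec4d had 22.5, 26.0 and 56.5 CPM in RelA-TA-KI and 20.6, 30.6 and 48.5 CPM in wild-type cells. Rgs1, which dampens chemokine receptor signalling, had 4.97, 41.0 and 36.7 CPM in RelA-TA-KI and 3.80, 36.8 and 34.7 CPM in wild-type cells. Of C5ar1, Cd83, Clec4e and Clec4d, none passed the TNF test in RelA-TA-KI cells by edgeR without the replicate block. With it Cd83 passed at 1 h (log2 1.21, adjusted p = 0.00012), against an adjusted p of 0.283 without it, and the other 3 passed at neither time. Rgs1, in contrast, passed at 0.5 h of TNF in both fits, at log2 2.14 (adjusted p = 0.0146 by edgeR) without the block. At 1 h of TNF Rgs1 passed in neither fit. The macrophage markers summed to 3688 to 4086 CPM in the RelA-TA-KI LPS libraries, and their part in these genes was not tested.

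Other genes outside the lists are regulators found in many cell types. Rhob, a small GTPase of the early growth factor response, had 139.1, 344.1 and 293.4 CPM, and Ppp1r15a, which restores translation after stress, 21.3, 59.7 and 61.8 CPM. Trib1, a pseudokinase that directs protein turnover, had 13.6, 42.4 and 53.7 CPM. All of these rose with TNF in RelA-TA-KI cells: the log2 fold change of edgeR at 0.5 h was 1.11 ± 0.08 (SE, adjusted p = 4.97e-07) for Rhob, 1.53 ± 0.11 (SE, adjusted p = 7.14e-07) for Ppp1r15a and 1.65 ± 0.12 (SE, adjusted p = 9.73e-07) for Trib1. Noct, a circadian gene, and Skil, a repressor of TGF-beta signalling, reached their highest level at 1 h, with 10.1, 18.8 and 51.6 CPM and 88.0, 133.2 and 232.6 CPM.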
